A study of Mus musculus with 6 samples.

Results

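The genes described here copy the genome in S phase. They are 55 genes, listed by symbol from origin licensing to nucleotide supply, of 43432 genes in the deposited table. Each symbol was matched to 1 Ensembl identifier, all 55 were measured, and no member was at 0 reads in any library. The genes were listed by role, with earlier results of these data known.

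A cell prepares to copy its DNA in G1 phase, when the origin recognition complex, with Cdc6 and Cdt1, loads the ring-shaped MCM helicase on chromatin, a step called licensing. On entry into S phase the kinase Cdc7 with its partner Dbf4, and then Cdc45 and the GINS complex, switch the helicase on. Primase and the replicative polymerases follow behind it, with the sliding clamp PCNA, its loader RFC and a supply of deoxynucleotides. In the myeloid lineage, precursors divide in the marrow and, in mice, also in the spleen, whereas mature neutrophils do not divide.

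Bulk RNA-seq was done on spleen cells sorted for CD11b, an integrin chain of myeloid cells, in C57BL/6J Rag1 KO mice at day 8 after cell transfer. Rag1 KO mice form no mature lymphocytes of their own. Recipients in the WT iGB6 group (3 mice) had been given wild-type B cells from the iGB culture that carried a retroviral vector with Il6 and enhanced green fluorescent protein. Recipients in the IgHMOG iGBGFP group (3 mice) had been given iGB-cultured B cells with the IgHMOG heavy chain and an empty pMSCV vector. The mice of both groups also received unmanipulated CD4+ T cells of the 2D2 line, whose receptor recognises MOG, and the B cells of both groups were loaded with the myelin protein MOG. B cell genotype and vector differed together, so their parts in any difference cannot be told apart. In each group replicate 1 was female and replicates 2 and 3 were male. The labels do not give the age of the mice.

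Recovered read totals were 5955142 to 7564254 in WT iGB6 libraries and 5196339 to 6611212 in IgHMOG iGBGFP libraries. A member had between 6 and 2346 reads in a library, with a median of 125.5 over 330 values, and 46 values rested on fewer than 30 reads. The CD11b gene Itgam stood at 9561 to 12352 normalized counts in WT iGB6 and 6451 to 10606 in IgHMOG iGBGFP libraries. The T cell gene Cd3e was at 0 in every WT iGB6 library and at 1.02 to 4.0 normalized counts in IgHMOG iGBGFP libraries. Another T cell gene, Cd3d, was at 63.1 to 85.5 in WT iGB6 and 47.0 to 132 in IgHMOG iGBGFP libraries. All listed T cell genes together summed to 98.7 to 256 in WT iGB6 and 150 to 234 in IgHMOG iGBGFP libraries.

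All 55 replication genes had a positive log2 fold change, that is, higher counts in WT iGB6 than in IgHMOG iGBGFP libraries, against 51.6% of the 9923 genes tested. Of the 55, 23 were higher in WT iGB6 at an adjusted p under 0.05, where 2.75% of all genes tested were called higher, and 32 did not pass. At an unadjusted p under 0.05, 39 were higher, against 12.3% of all genes. None was called lower by limma, edgeR or DESeq2, which called 3.37%, 2.94% and 4.60% of all genes lower, and none was lower at an unadjusted p under 0.05. The calls were limma's on log2(normalized count + 1), with sex as a term and Benjamini-Hochberg adjustment over 9923 genes. The median log2 fold change was 0.89 over the 55 genes and 0.02 over all genes. Every WT iGB6 library lay above every IgHMOG iGBGFP library for 32 of the 55, against 12.2% of all genes. The largest change belonged to Rrm2, at 1.49, and the smallest to Orc5, at 0.02. In bulk RNA, more dividing cells and more of these transcripts per cell cannot be told apart. The authors' deposited table also gave a positive log2 fold change to all 55 and an adjusted p under 0.05 to 26, against 3.89% of its genes, adding Mcm3, Rfc5 and Tipin to the 23.

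The number of calls depended on single libraries, and so did the direction of 5 genes with changes near 0 (Orc2, Orc5, Rfc2, Rpa3 and Dctpp1). Without IgHMOG iGBGFP replicate 2, 0 of the 55 passed limma's threshold, with 35 at an unadjusted p under 0.05, and 0.0304% of all genes were called higher. Without IgHMOG iGBGFP replicate 3 only Rrm2 passed, against 0.122% of all genes. Without the female WT iGB6 replicate 1 (0.624% of all genes called higher) or the female IgHMOG iGBGFP replicate 1 (0.665%), 3 genes passed in both cases: Cdc6, Rrm2 and Tyms. Without WT iGB6 replicate 2, 18 passed, against 4.13% of all genes, and without WT iGB6 replicate 3, 31 passed, against 3.49%. A fit without the sex term called 0 of the 55, with 35 at an unadjusted p under 0.05, and 0.0605% of all genes. Over these 6 omissions, 52 to 55 of the genes kept a positive change and their median log2 fold change was 0.71 to 1.09. When libraries were scaled to total reads instead of the authors' size factors, the median of all genes shifted to −0.19, the members' median was 0.69 and 6 members were called, against 0.826% of all genes (Cdc6, Mcm6, Cdc7, Rrm2, Tyms and Tk1).

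**Figure D1:**
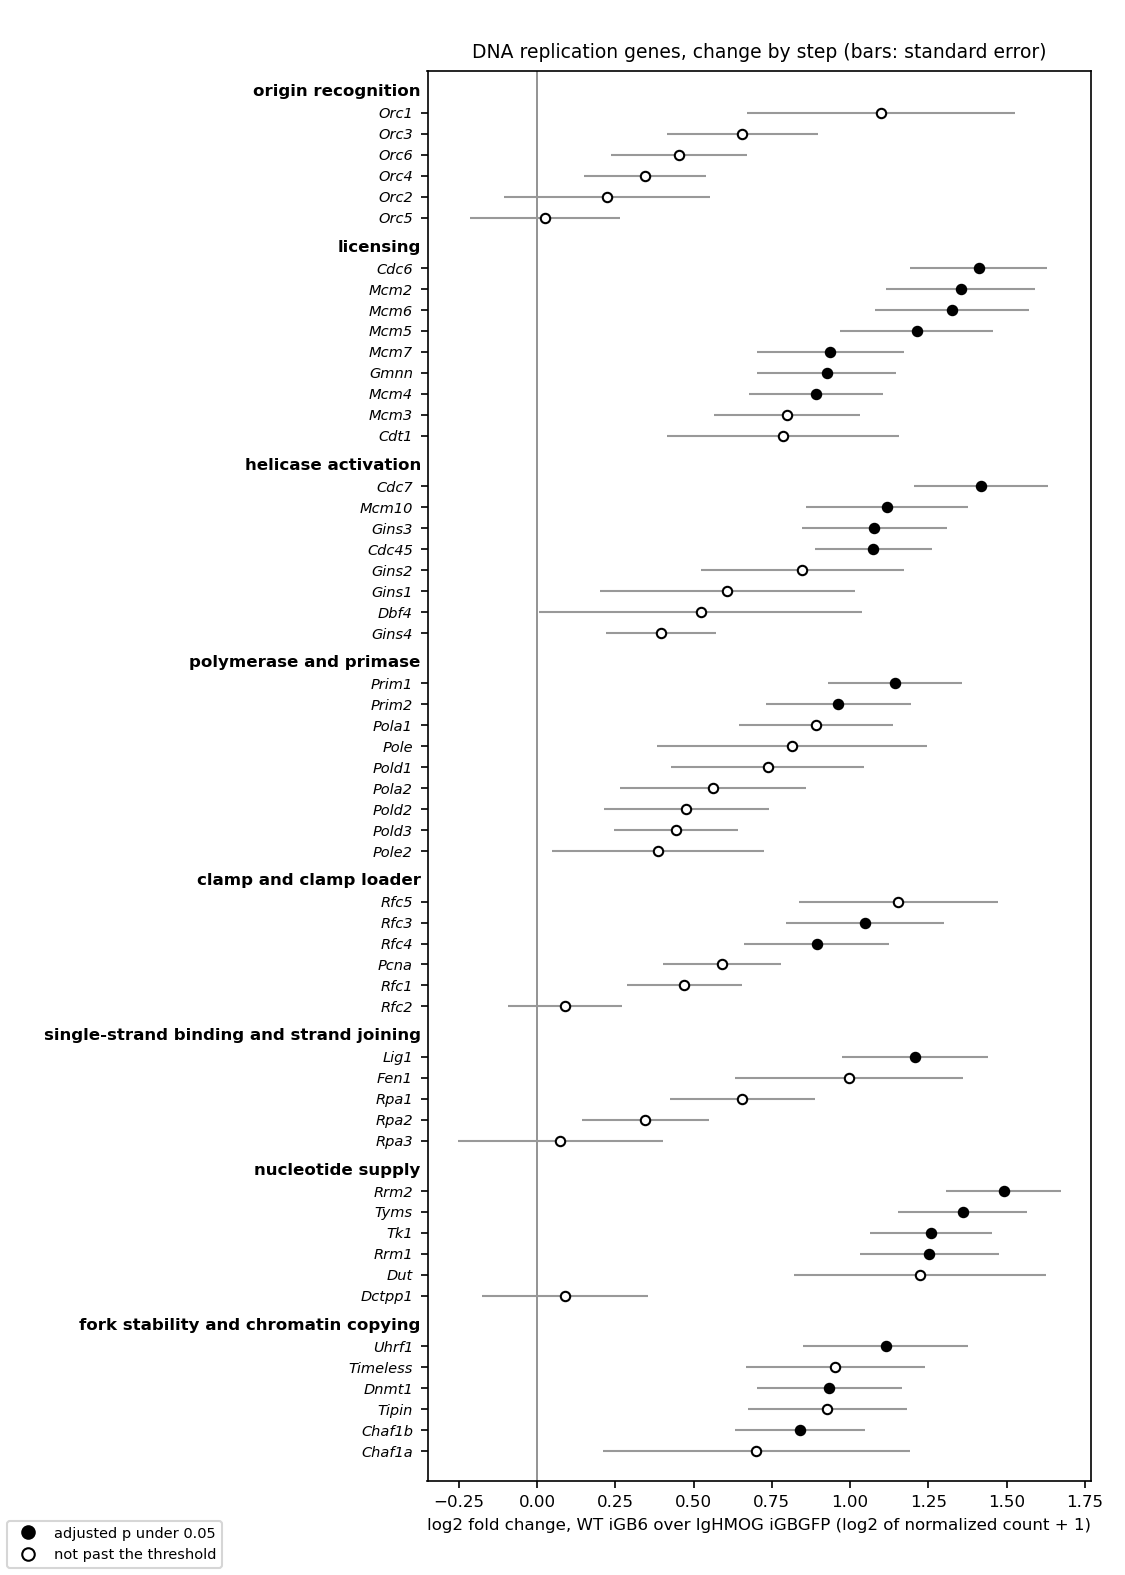
Change in WT iGB6 relative to IgHMOG iGBGFP (x axis, log2 fold change on log2 of normalized count + 1) for the 55 replication genes, grouped by step and ordered by size within a step; bars are standard errors, and filled points had an adjusted p under 0.05. All points lie above 0, the filled ones (23) are in every step but origin recognition, and Orc5, Rfc2, Rpa3 and Dctpp1 lie nearest to 0.

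Several members carry letters of known regulatory sites in the 250 bases before a RefSeq start. In S phase genes the E2F factors bind short sites near the transcription start, and NF-Y binds CCAAT boxes. The windows searched were the 250 bases before each RefSeq gene start on GRCm38.p6, and 46 of the 55 members had one. The letters TTTCCCGC, TTTGGCGC, TTTCGCGC or TTTGCCGC, on either strand, were in the windows of 11 of the 46 (23.9%) and of 2.72% of 17491 protein-coding genes. The letters CCAAT, on either strand, were in 27 of the 46 (58.7%) and in 39.5% of protein-coding genes. Both kinds were in 9 members (19.6%), against 1.25% of protein-coding genes. A match of letters is not a measured site, and binding was not measured. A different split, chosen from the calls and so only a description, put E2F letters in 8 of the 20 called members with a window and in 3 of the 26 not called.

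The windows of 5 members are shown to set members with E2F letters beside the member with the largest change, which had none. They are written 5′ to 3′ on the strand of the gene, from RefSeq, and capitals mark the E2F letters and CCAAT or its reverse complement ATTGG. The MCM helicase subunits Mcm5 (chr8:75109259-75109508, + strand) and Mcm6 (chr1:128359706-128359955, − strand) had E2F letters on both strands that overlap in 1 run, and Mcm6 had a further match nearer its start. The loader Cdc6 (chr11:98907901-98908150, + strand) had E2F letters without a CCAAT box. The helicase cofactor Gins3 (chr8:95633309-95633558, + strand) had both. By GENCODE M21 coordinates, Cdc6 starts at 98907801 and Gins3 at 95633453. The whole Cdc6 window and the E2F letters of Gins3 therefore lie inside the gene by that annotation. The ribonucleotide reductase subunit Rrm2 (chr12:24708004-24708253, + strand) had a CCAAT box and none of the E2F letters in this window.
Mcm5: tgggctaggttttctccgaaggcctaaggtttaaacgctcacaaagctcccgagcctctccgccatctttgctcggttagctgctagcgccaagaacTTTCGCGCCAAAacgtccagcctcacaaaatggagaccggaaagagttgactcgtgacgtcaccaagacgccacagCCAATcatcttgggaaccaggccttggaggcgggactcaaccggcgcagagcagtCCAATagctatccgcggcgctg
Mcm6: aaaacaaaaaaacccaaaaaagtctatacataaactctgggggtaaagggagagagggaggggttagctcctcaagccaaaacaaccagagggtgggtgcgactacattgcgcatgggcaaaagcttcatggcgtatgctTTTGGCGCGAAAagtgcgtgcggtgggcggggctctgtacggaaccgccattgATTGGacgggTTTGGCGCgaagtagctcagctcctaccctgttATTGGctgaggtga
Cdc6: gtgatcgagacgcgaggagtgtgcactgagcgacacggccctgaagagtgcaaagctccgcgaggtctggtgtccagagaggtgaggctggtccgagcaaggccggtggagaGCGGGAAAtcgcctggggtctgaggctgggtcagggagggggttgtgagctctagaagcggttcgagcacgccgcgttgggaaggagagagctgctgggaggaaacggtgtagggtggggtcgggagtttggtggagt
Gins3: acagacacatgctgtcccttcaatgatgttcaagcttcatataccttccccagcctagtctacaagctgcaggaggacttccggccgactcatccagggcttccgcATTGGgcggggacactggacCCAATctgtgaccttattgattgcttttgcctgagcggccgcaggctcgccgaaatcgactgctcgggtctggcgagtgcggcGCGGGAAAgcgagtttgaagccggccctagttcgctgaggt
Rrm2: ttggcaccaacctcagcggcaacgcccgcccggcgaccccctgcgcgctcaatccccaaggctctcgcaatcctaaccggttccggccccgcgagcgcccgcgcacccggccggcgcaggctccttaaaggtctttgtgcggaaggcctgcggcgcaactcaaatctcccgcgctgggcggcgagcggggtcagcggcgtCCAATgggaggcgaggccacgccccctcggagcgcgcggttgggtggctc

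Origin recognition, the step that marks where copying can begin, changed least in calls. None of its 6 genes passed limma's threshold, and edgeR and DESeq2 also called 0, while 2 had an unadjusted p under 0.05. The median log2 fold change of the step was 0.40, with a range of 0.02 to 1.10. Orc1, the subunit whose protein comes and goes with the cell cycle, had 23.7, 21.3 and 11.2 normalized counts in WT iGB6 libraries (replicates 1, 2 and 3, the order used throughout), against 9.21, 8.62 and 6.00 in IgHMOG iGBGFP libraries. The groups did not overlap, but the counts were low and the log2 fold change of 1.10 ± 0.43 (standard error) had an adjusted p of 0.149. Orc3, a core subunit, had 309, 280.2 and 262 normalized counts in WT iGB6, against 185, 129 and 243 in IgHMOG iGBGFP libraries. These also did not overlap, with a log2 fold change of 0.66 ± 0.24 and an adjusted p of 0.13. Orc5, which binds ATP in the complex, had 84.2, 95.5 and 118 normalized counts in WT iGB6, against 75.7, 88.8 and 134 in IgHMOG iGBGFP libraries. Its groups overlapped and its log2 fold change was 0.02 ± 0.24.

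The 6 ORC subunits differed more in level than in change. Levels of different genes are compared per kb of exon, merged over all annotated transcripts of a gene, so such comparisons also depend on the annotation. Per kb of exon, Orc1 had the lowest level in both groups, at 5.39 ± 1.90 normalized counts in WT iGB6 and 2.28 ± 0.491 in IgHMOG iGBGFP (SD, n = 3 each). The highest subunit was 8.65 times the lowest in WT iGB6 (Orc3) and 13.8 times in IgHMOG iGBGFP (Orc4). The count ratio of Orc1 to Orc2 was 0.541, 0.422 and 0.189 in WT iGB6, against 0.176, 0.313 and 0.105 in IgHMOG iGBGFP libraries, so the groups overlapped. Orc2 shares 1150 exon bases with Nif3l1 on the other strand, and reads there could not be assigned by strand.

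Licensing gave the most calls: 7 of its 9 genes rose, with a median log2 fold change of 0.94 and a lowest of 0.79. The 7 were Cdc6, Gmnn, Mcm2, Mcm4, Mcm5, Mcm6 and Mcm7. Cdc6, the ATPase that loads the helicase with ORC, had 286, 285 and 222 normalized counts in WT iGB6, against 143, 79.3 and 83.0 in IgHMOG iGBGFP libraries. The lowest WT iGB6 library was well above the highest IgHMOG iGBGFP library, and the log2 fold change was 1.41 ± 0.22 with an adjusted p of 0.0113. Cdt1, the other loading factor, had 33.2, 15.8 and 16.9 normalized counts in WT iGB6, against 14.3, 12.1 and 9.00 in IgHMOG iGBGFP libraries. Its groups did not overlap either, but its log2 fold change of 0.79 ± 0.37 did not pass, with an adjusted p of 0.223. Geminin (Gmnn), which binds Cdt1 and prevents a second round of loading, was called, with a log2 fold change of 0.92 ± 0.22 and an adjusted p of 0.0409. The count ratio of Gmnn to Cdt1 was 5.50, 8.35 and 6.20 in WT iGB6, against 6.07, 5.93 and 6.44 in IgHMOG iGBGFP libraries, and the groups overlapped.

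The helicase itself, the hexamer of Mcm2 to Mcm7, had 5 of 6 subunits called and a median log2 fold change of 1.07. Mcm2 had 732, 524 and 294 normalized counts in WT iGB6, against 247, 147 and 184 in IgHMOG iGBGFP libraries. Its groups were apart, and its log2 fold change was 1.35 ± 0.24 with an adjusted p of 0.0167. Mcm5 had 1131, 825 and 467 normalized counts in WT iGB6, against 433, 233 and 346 in IgHMOG iGBGFP libraries. Here WT iGB6 replicate 3 was close to IgHMOG iGBGFP replicate 1, and the log2 fold change was 1.21 ± 0.24 with an adjusted p of 0.0248. Mcm3, the subunit that was not called, had overlapping groups and a log2 fold change of 0.80 ± 0.23 with an adjusted p of 0.0688, while the authors' deposited table gave it an adjusted p of 0.0229. Mcm6 and Mcm7 were called although their groups overlapped, and TMM scaling ended the call of Mcm7. Mcm6 had 569, 169.7 and 259 normalized counts in WT iGB6, against 173, 79.3 and 114 in IgHMOG iGBGFP libraries. Levels within the hexamer were close compared with other complexes: per kb of exon the highest subunit, Mcm5, was 2.84 times the lowest, Mcm6, in WT iGB6 and 3.23 times in IgHMOG iGBGFP.

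**Figure D2:**
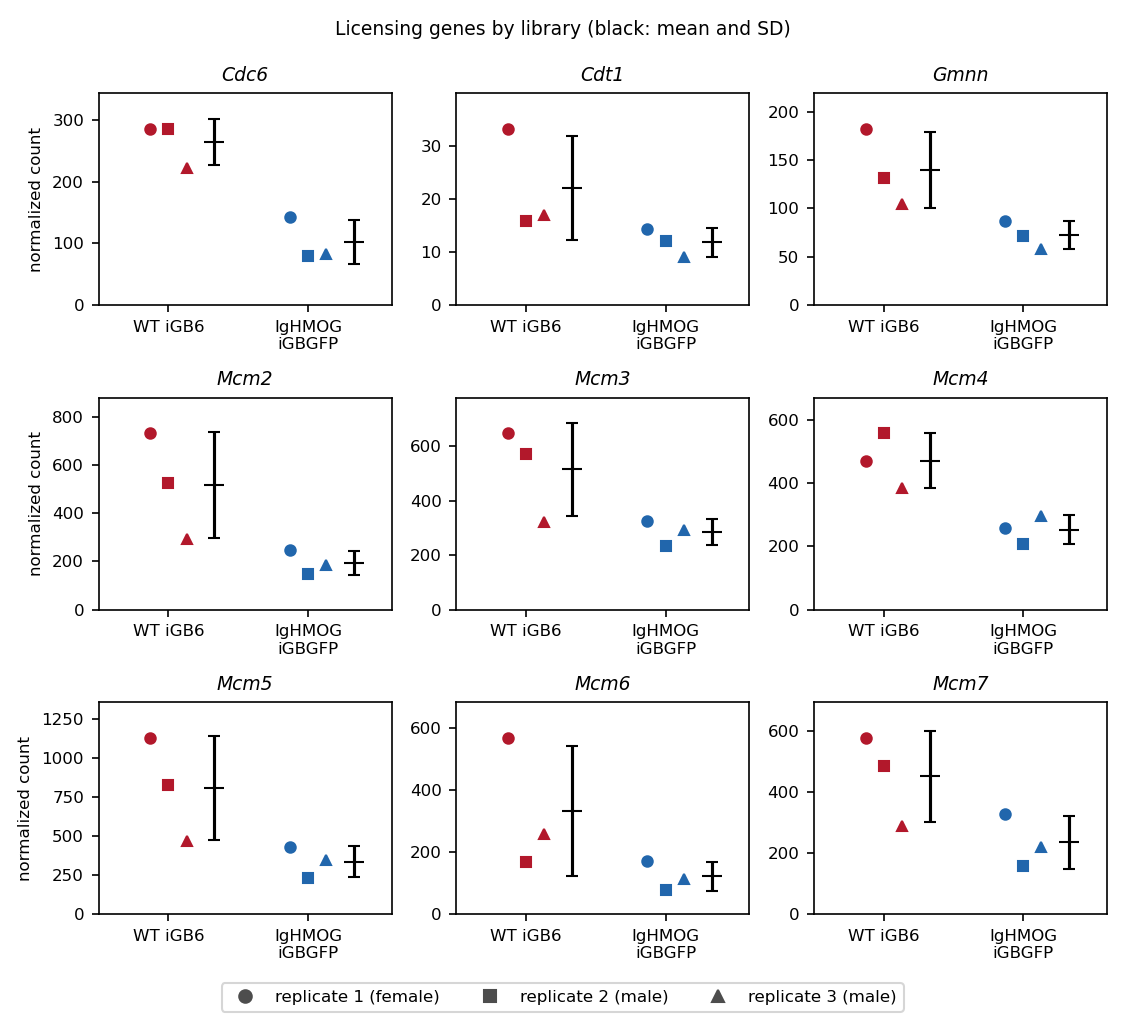
Normalized counts (y axis, a linear scale from 0 in each panel) of the 9 licensing genes in each library, WT iGB6 left and IgHMOG iGBGFP right; symbols give the replicate and sex, and black marks the mean with SD (n = 3). WT iGB6 replicate 3 was the lowest of its group for most genes, and for Mcm3, Mcm6 and Mcm7 the groups overlapped.

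Helicase activation had 4 of 8 genes called, Cdc7, Mcm10, Cdc45 and Gins3, with a median log2 fold change of 0.96. Cdc7, the kinase that phosphorylates the loaded helicase, had 179, 138 and 125 normalized counts in WT iGB6, against 64.4, 51.7 and 47.0 in IgHMOG iGBGFP libraries. All WT iGB6 values were far above the others, with a log2 fold change of 1.42 ± 0.21 and an adjusted p of 0.0113. Dbf4, the subunit that Cdc7 needs for activity, had 21.3, 27.6 and 7.87 normalized counts in WT iGB6, against 8.18, 16.4 and 11.0 in IgHMOG iGBGFP libraries. Its groups overlapped and its log2 fold change of 0.52 ± 0.52 was not called, at a level that limits what could be seen. Cdc45, which joins the helicase to make it active, had 362, 272 and 238 normalized counts in WT iGB6, against 196, 113 and 112 in IgHMOG iGBGFP libraries. The groups were apart and the log2 fold change was 1.07 ± 0.19, with an adjusted p of 0.0167.

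The 4 GINS subunits, which form part of the active helicase in equal numbers as proteins, had unequal RNA levels per kb of annotated exon. Per kb of exon, Gins4 was at 192 ± 20.9 normalized counts in WT iGB6 and 146 ± 21.0 in IgHMOG iGBGFP (SD, n = 3 each), which was 15.2 and 21.9 times the level of Gins2 in the same groups. Gins4 had 290.5, 235 and 253 normalized counts in WT iGB6, against 230.2, 179 and 183 in IgHMOG iGBGFP libraries. Its groups lay close together, and its log2 fold change of 0.40 ± 0.18 was the smallest of the step. Gins3 was the subunit called, with a log2 fold change of 1.08 ± 0.23 and an adjusted p of 0.0303. Gins2 was divided by 4.097 kb of annotated exon and Gins4 by 1.349 kb, and the part of this in the gap was not tested. Gins2 shares 2758 exon bases with Gse1 on the other strand, so its level is uncertain.

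Among the 9 polymerase and primase genes, both primase subunits rose and the 7 polymerase subunits did not pass the threshold. The step's median log2 fold change was 0.74. Prim1, the catalytic subunit that makes the RNA primer, had 175, 156 and 126 normalized counts in WT iGB6, against 72.6, 63.0 and 68.0 in IgHMOG iGBGFP libraries. Its groups were clearly apart, with a log2 fold change of 1.14 ± 0.21 and an adjusted p of 0.0189. Prim2, the regulatory subunit, had 178, 108 and 101 normalized counts in WT iGB6, against 68.5, 57.8 and 65.0 in IgHMOG iGBGFP libraries. Here the female WT iGB6 library stood above its group, and the log2 fold change was 0.96 ± 0.23 with an adjusted p of 0.0404. Pold3, an accessory subunit of the lagging-strand polymerase delta, had 379, 259 and 219 normalized counts in WT iGB6, against 217, 187 and 209.9 in IgHMOG iGBGFP libraries. The lowest WT iGB6 value was just above the highest IgHMOG iGBGFP value, and the log2 fold change of 0.44 ± 0.20 had an adjusted p of 0.198. Pole2, of the leading-strand polymerase epsilon, had 28.5, 30.8 and 37.1 normalized counts in WT iGB6, against 25.6, 17.2 and 32.0 in IgHMOG iGBGFP libraries. Its groups overlapped, at a log2 fold change of 0.39 ± 0.34. Pola1, which carries primase, came nearest to the threshold among the polymerases, with a log2 fold change of 0.89 ± 0.25 and an adjusted p of 0.059. A subunit that missed the threshold is not thereby shown to be unchanged.

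The sliding clamp and its loader had 2 of 6 genes called, Rfc3 and Rfc4, and a median log2 fold change of 0.74. Rfc3 had 104, 112 and 75.4 normalized counts in WT iGB6, against 54.2, 39.7 and 45.0 in IgHMOG iGBGFP libraries. Rfc4 had 174, 163 and 118 normalized counts in WT iGB6, against 84.9, 67.3 and 90.0 in IgHMOG iGBGFP libraries. Both small subunits had groups that did not overlap, with log2 fold changes of 1.05 ± 0.25 (adjusted p 0.0409) and 0.89 ± 0.23 (adjusted p 0.0499). Rfc4 was so close to the threshold that edgeR, TMM scaling, a pseudocount of 0.5 and a filter at a mean of 50 each ended its call. It shares 194 exon bases with Eif4a2, a gene on the other strand that averaged 1051 normalized counts. Pcna, the clamp that tethers polymerases to DNA and a common marker of dividing cells, had 403, 371 and 305 normalized counts in WT iGB6, against 216, 244 and 252 in IgHMOG iGBGFP libraries. Its groups were apart, yet its log2 fold change of 0.59 ± 0.19 had an adjusted p of 0.0897, and the authors' deposited table gave 0.101. Pcna has annotated pseudogenes that may take or give reads.

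Rfc2, another small loader subunit, had the smallest change of the step. It had 1149, 1005 and 803 normalized counts in WT iGB6, against 1037, 994 and 747 in IgHMOG iGBGFP libraries. The groups overlapped almost wholly, with a log2 fold change of 0.09 ± 0.18. Per kb of exon Rfc2 was also the most abundant loader subunit, at 156 ± 27.6 in WT iGB6 and 147 ± 24.9 in IgHMOG iGBGFP (SD, n = 3 each), or 6.83 and 14.1 times Rfc5 in the same groups. It shares 952 exon bases with Lat2, an adaptor gene of myeloid and B cells on the other strand that averaged 425 normalized counts, and the part of those reads in its level was not tested.

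Of the 5 genes that coat single strands or join new ones, only Lig1 passed the threshold, and the median log2 fold change was 0.66. Lig1, the ligase that seals Okazaki fragments, had 461, 305 and 184 normalized counts in WT iGB6, against 171, 101 and 121 in IgHMOG iGBGFP libraries. WT iGB6 replicate 3 was close to IgHMOG iGBGFP replicate 1, and the log2 fold change was 1.21 ± 0.23 with an adjusted p of 0.021. Rpa1, the large subunit of the single-strand binding protein, had 806, 686 and 419.6 normalized counts in WT iGB6, against 379.5, 358 and 436 in IgHMOG iGBGFP libraries. Its groups overlapped through replicate 3 of each group, with a log2 fold change of 0.66 ± 0.23 and an adjusted p of 0.116. Rpa3, the small subunit, had 32.0, 22.9 and 32.6 normalized counts in WT iGB6, against 22.5, 25.9 and 35.0 in IgHMOG iGBGFP libraries. No group stood above the other, and the log2 fold change was 0.07 ± 0.33. Fen1, the flap nuclease that trims the fragments before ligation, had a log2 fold change of 1.00 ± 0.36 and an adjusted p of 0.127, without overlap of its groups.

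Nucleotide supply had the largest median log2 fold change of the 8 steps, 1.26, with 4 of 6 genes called: Rrm1, Rrm2, Tyms and Tk1. Rrm2 is the small subunit of ribonucleotide reductase, which limits deoxynucleotide production and is made in S phase (chr12:24708241-24714146, + strand, GRCm38). It had 2453, 1852 and 1316 normalized counts in WT iGB6, against 816, 534 and 617 in IgHMOG iGBGFP libraries. The lowest WT iGB6 library exceeded the highest IgHMOG iGBGFP library by a wide margin, and the log2 fold change was 1.49 ± 0.18 with an adjusted p of 0.00471, the lowest among the 55 genes. Per kb of exon it was also the most abundant of the 55 in both groups, at 676 ± 205 in WT iGB6 and 237 ± 52.4 in IgHMOG iGBGFP (SD, n = 3 each). Tyms, which makes thymidylate, had 347, 303 and 211 normalized counts in WT iGB6, against 144, 96.6 and 93.0 in IgHMOG iGBGFP libraries. Its groups were apart, with a log2 fold change of 1.36 ± 0.21 and an adjusted p of 0.0113, and it has an annotated pseudogene.

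The other 2 called genes of the step were close to these. Tk1, which salvages thymidine, and Rrm1, the large reductase subunit, had log2 fold changes of 1.26 ± 0.20 and 1.25 ± 0.22. Dctpp1, which removes unwanted deoxycytidine triphosphates, had 75.9, 73.4 and 56.2 normalized counts in WT iGB6, against 51.1, 79.3 and 64.0 in IgHMOG iGBGFP libraries. Its groups overlapped and its log2 fold change was 0.09 ± 0.26. The count ratio of Rrm2 to Rrm1 was 1.97, 1.81 and 2.04 in WT iGB6, against 1.61, 1.88 and 1.47 in IgHMOG iGBGFP libraries, with overlap. The count ratio of Rrm2 to Rrm2b, the small subunit that p53 induces outside S phase, was 20.9, 15.4 and 6.88 in WT iGB6, against 4.87, 3.92 and 3.55 in IgHMOG iGBGFP libraries. Here the groups did not overlap, and Rrm2b itself had a log2 fold change of −0.19 ± 0.24 and was not called.

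The genes that steady the fork and copy chromatin marks had 3 of 6 called, Uhrf1, Dnmt1 and Chaf1b, with a median log2 fold change of 0.93. TMM scaling ended the call of Dnmt1. Uhrf1, which guides the methyltransferase Dnmt1 to newly copied DNA, had 460.1, 343 and 168 normalized counts in WT iGB6, against 182, 128 and 111 in IgHMOG iGBGFP libraries. WT iGB6 replicate 3 lay below IgHMOG iGBGFP replicate 1, and the log2 fold change was 1.11 ± 0.26 with an adjusted p of 0.0392. Chaf1b, a subunit of the histone chaperone CAF-1, had 204, 161 and 141 normalized counts in WT iGB6, against 137, 73.3 and 79.0 in IgHMOG iGBGFP libraries. Its groups were separated by a small gap, with a log2 fold change of 0.84 ± 0.21 and an adjusted p of 0.0432. Chaf1a, the large CAF-1 subunit, had 26.1, 26.8 and 7.87 normalized counts in WT iGB6, against 12.3, 12.1 and 8.00 in IgHMOG iGBGFP libraries. Its groups overlapped at a low level, the log2 fold change was 0.70 ± 0.49, and it shares 4648 exon bases with Ubxn6 on the other strand. Tipin, which with Timeless protects paused forks, had 332, 216 and 124 normalized counts in WT iGB6, against 131, 95.7 and 102 in IgHMOG iGBGFP libraries. WT iGB6 replicate 3 lay within the other group's range, and the log2 fold change of 0.93 ± 0.25 had an adjusted p of 0.0585.

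A few libraries set the extremes for most genes. Within WT iGB6, replicate 1 was the highest for 44 of the 55 genes and replicate 3 the lowest for 43. Within IgHMOG iGBGFP, replicate 1 was the highest for 33 and replicate 2 the lowest for 33. Summed over the 55 genes, WT iGB6 libraries held 18817, 15151 and 11040 normalized counts, against 9291, 6907 and 7984 in IgHMOG iGBGFP libraries, without overlap. As a share of all normalized counts the sums were 0.266%, 0.254% and 0.153% in WT iGB6, against 0.140%, 0.121% and 0.154% in IgHMOG iGBGFP libraries. By share, WT iGB6 replicate 3 and IgHMOG iGBGFP replicate 3 could not be separated.

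**Figure D3:**
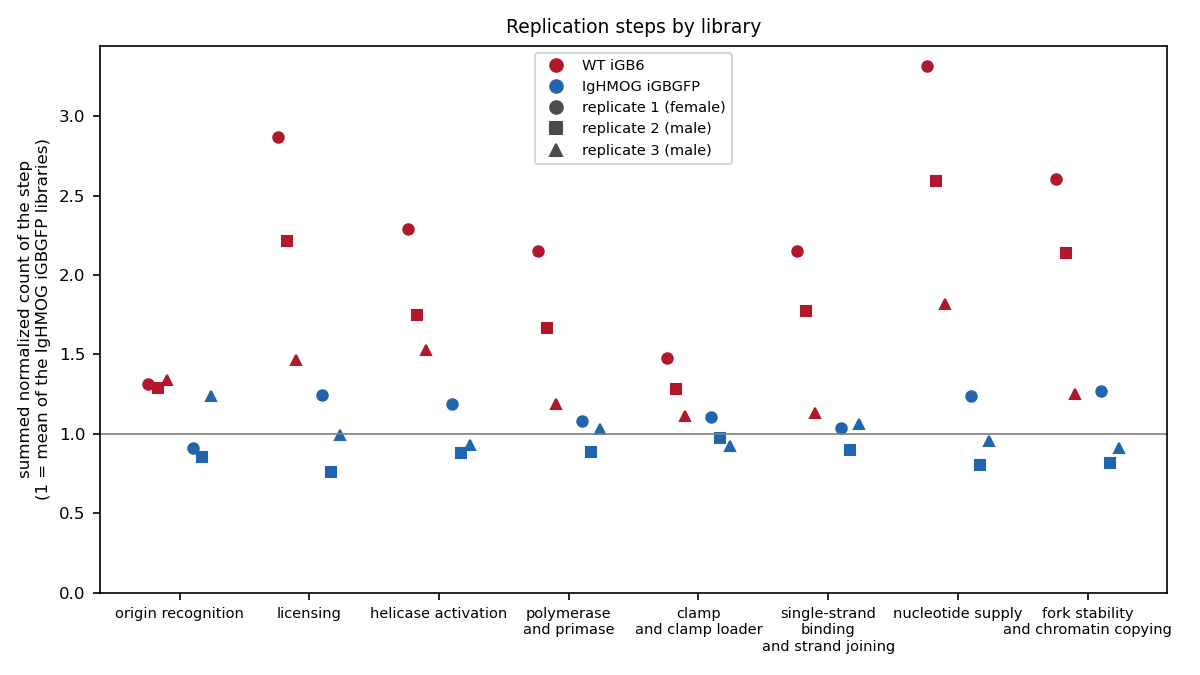
Summed normalized count of each replication step in each library (y axis, relative to the mean of the IgHMOG iGBGFP libraries, which is 1), WT iGB6 left and IgHMOG iGBGFP right within a step; symbols give the replicate and sex. WT iGB6 replicate 1 reached 3.32 for nucleotide supply and 2.87 for licensing, while for fork stability and chromatin copying WT iGB6 replicate 3, at 1.25, lay below IgHMOG iGBGFP replicate 1, at 1.27.

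Most of the 55 genes were higher in WT iGB6 both between the single females and between the males. The female comparison rests on 1 mouse a group, and WT iGB6 replicate 1 was the highest of its group for 44 of the 55. In a limma fit of the males only, 3 of the 55 passed the threshold, against 0.613% of all genes called higher. Between the females, 1 library each, 54 of the 55 genes were higher in WT iGB6, against 51.5% of all genes, with a median log2 difference of 1.06. Between the males, 2 libraries each, 52 were higher, against 50.5% of all genes, with a median of 0.76. Orc2 was lower in the WT iGB6 female, by a log2 difference of −0.24, and Orc5, Rpa3 and Dctpp1 were lower in the WT iGB6 males, at −0.04, −0.13 and −0.15. The interaction of sex and group in limma passed an adjusted p of 0.05 for 0 of the 55 genes and for 0 of 9923 in all. At an unadjusted p under 0.05 it took in 0 of the 55 and 1.49% of all genes, and a design with 1 female a group can detect only large differences between the sexes.

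**Figure D4:**
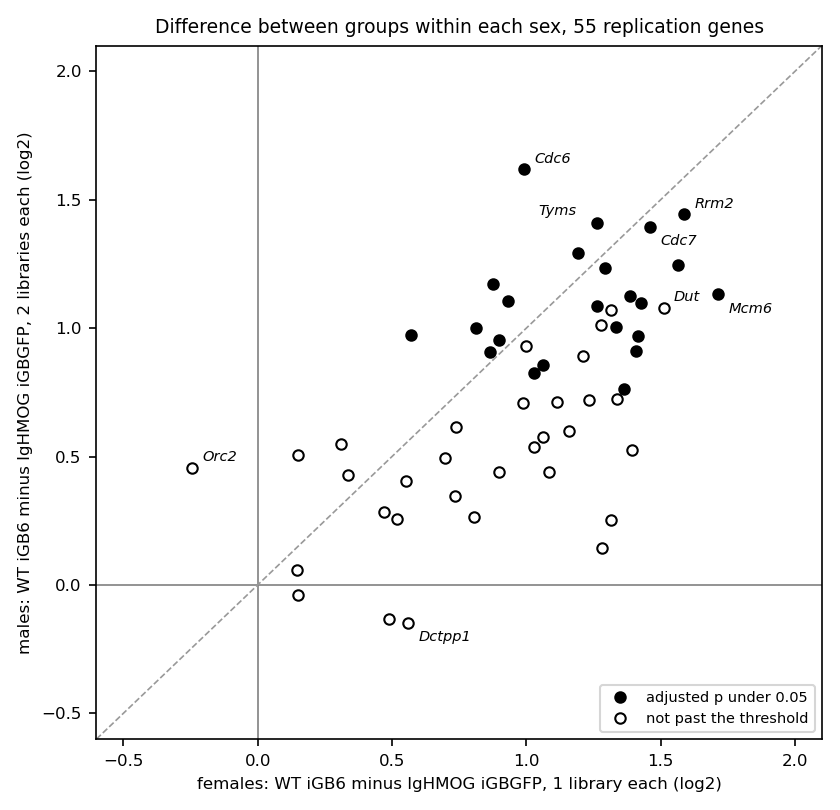
Log2 difference of WT iGB6 minus IgHMOG iGBGFP in females (x axis, 1 library each) and males (y axis, 2 libraries each) for the 55 replication genes; filled points had an adjusted p under 0.05 over all libraries, and the dashed line marks equal differences. All filled points lie above 0 in both sexes, and Cdc6 stands above the line at 0.99 in females and 1.62 in males.

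Genes of the same processes outside the 55 went in both directions. Of 95 such genes listed by role, 83 were tested and 54 had a positive change, against 51.6% of all genes tested. The median log2 fold change was 0.40. By limma 9 were called higher, against 2.75% of all genes, and 3 lower, against 3.37%. The number called lower was near the share over all genes. Without IgHMOG iGBGFP replicate 2, 0 were called in either direction, without IgHMOG iGBGFP replicate 1 or 3 or WT iGB6 replicate 1 there was 1 higher and 0 lower, and without WT iGB6 replicate 3 there were 15 higher and 1 lower. Among other fork and initiation genes, 4 of 29 rose and 0 fell by limma, edgeR or DESeq2. These were Wdhd1, Pclaf, Dtl and Top2a. Wdhd1, which couples the polymerase alpha complex to the helicase, had 229, 163 and 111 normalized counts in WT iGB6, against 73.6, 40.5 and 66.0 in IgHMOG iGBGFP libraries, a log2 fold change of 1.45 ± 0.26. Pclaf, which binds the clamp, and Dtl, which helps destroy Cdt1 at the clamp, had log2 fold changes of 1.13 ± 0.20 and 1.21 ± 0.26. Among other chromatin copying genes, 2 of 13 rose: the histone chaperone Asf1b by 1.40 ± 0.21 and the FACT subunit Ssrp1 by 0.67 ± 0.17. Asf1b had 1585, 981 and 745 normalized counts in WT iGB6, against 428, 364 and 406 in IgHMOG iGBGFP libraries, with a wide gap between the groups.

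Genes of S phase entry and of nucleotide metabolism outside the 55 went both ways. Of 19 tested genes listed for S phase entry, 3 rose (Ccne2, Cdk2 and Fbxo5) and 2 fell (Ccnd1 and Cdkn1b). Over all genes, limma called 2.75% higher and 3.37% lower. Ccne2, an E-type cyclin that drives S phase entry, had 339, 280.2 and 281 normalized counts in WT iGB6, against 100.2, 92.3 and 109 in IgHMOG iGBGFP libraries. Libraries of a group were close to each other and the groups far apart, with a log2 fold change of 1.57 ± 0.19 and an adjusted p of 0.00471. Its kinase Cdk2 had a log2 fold change of 1.01 ± 0.18. Ccnd1, the G1 cyclin D1, had 19.0, 46.6 and 27.0 normalized counts in WT iGB6, against 43.0, 80.2 and 97.0 in IgHMOG iGBGFP libraries. Its groups overlapped, and it fell by 1.24 on the log2 scale with an adjusted p of 0.0389. The inhibitor Cdkn1b (p27), which restrains Cdk2, fell by 0.73 on the log2 scale. Among 22 other nucleotide genes, Dck, the deoxycytidine salvage kinase, fell and 0 rose by limma, with 7 at an unadjusted p under 0.05 in either direction. DESeq2 called 1 higher and 2 lower, and edgeR 1 higher and 0 lower, which ends the call of Dck. Dck had 781, 1124 and 641 normalized counts in WT iGB6, against 1219, 1849 and 1605 in IgHMOG iGBGFP libraries, a log2 fold change of −0.89 ± 0.22 with an adjusted p of 0.0442.

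**Figure D5:**
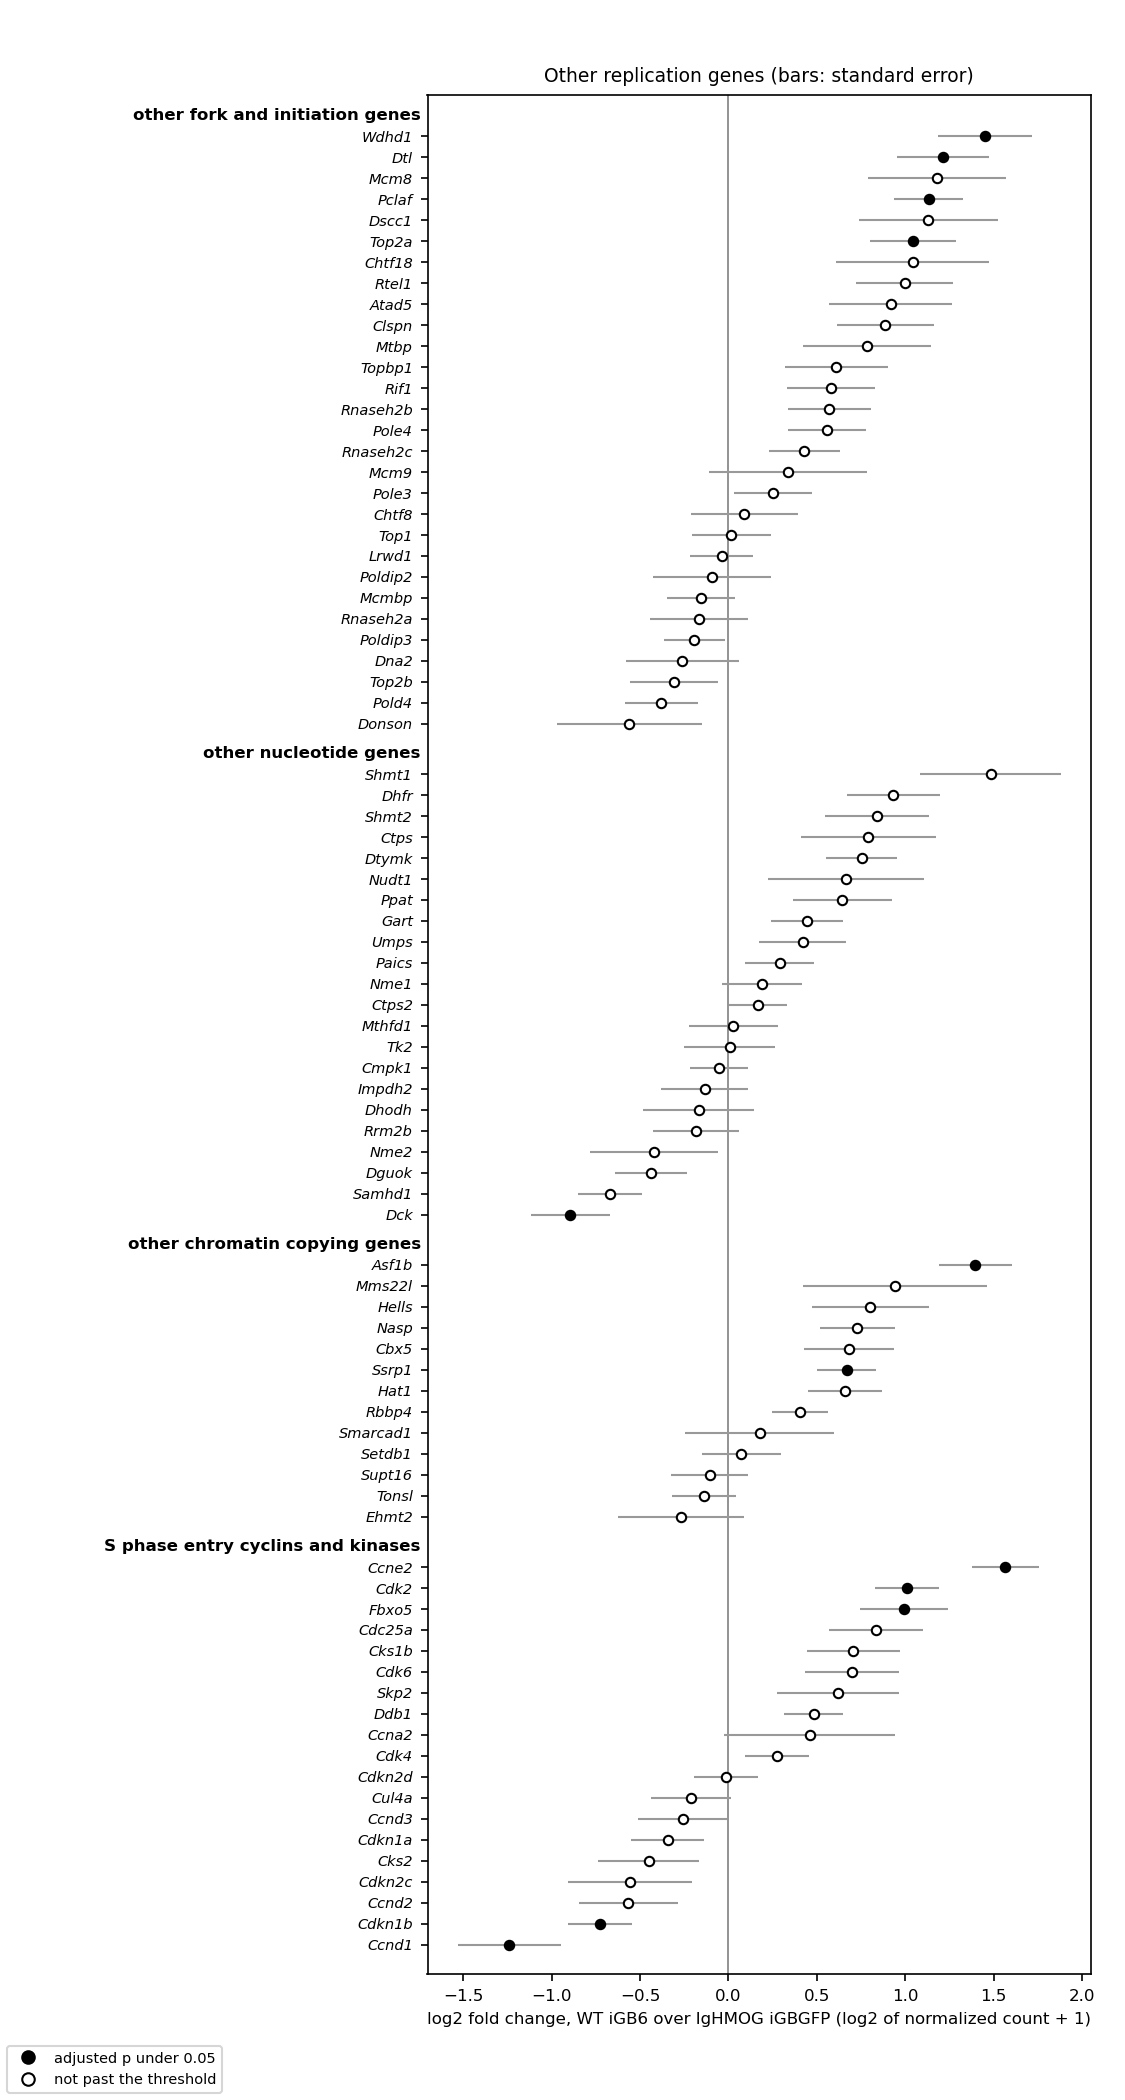
Change in WT iGB6 relative to IgHMOG iGBGFP (x axis, log2 fold change on log2 of normalized count + 1) for the 83 tested replication genes outside the 55, grouped by list; bars are standard errors, and filled points had an adjusted p under 0.05. The 9 genes called higher run up to Ccne2 at 1.57, and the 3 called lower are Ccnd1, Dck and Cdkn1b.

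Markers of immature neutrophils moved with the replication genes. All 10 tested genes of the neutrophil precursor list, such as the primary granule enzyme Mpo, were called higher by limma, against 2.75% of all genes. By edgeR 9 of the 10 were called, and their median log2 fold change in limma was 2.04. Their summed level was 23133 to 37608 normalized counts in WT iGB6 and 5821 to 13422 in IgHMOG iGBGFP libraries, and none of the list was at 0. By library, the sums were 37608, 26673 and 23133 in WT iGB6, against 13422, 7662 and 5821 in IgHMOG iGBGFP. The order of libraries matched that of the replication sum in WT iGB6 and did not in IgHMOG iGBGFP, where replicate 3 was lowest for the precursor genes and in the middle for the replication genes. Mature neutrophil genes had 0 of 10 called higher by limma, edgeR or DESeq2 and 2 called lower by limma, with sums of 124677 to 144800 in WT iGB6 and 109925 to 196715 in IgHMOG iGBGFP libraries. The part of the neutrophil precursors in the replication counts was not tested. Calls of marker genes, here and below, are given for all 6 libraries with the sex term only. Without IgHMOG iGBGFP replicate 2, limma called 3 of all genes higher in WT iGB6 and 1 lower. Without the sex term it called 6 higher and 4 lower, so the marker calls also depend on single libraries and on that term.

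Markers of other cells were summed in the same way. Erythroid genes had 0 of 12 called by limma, edgeR or DESeq2, with 6 at an unadjusted p under 0.05. All 12 had a positive log2 fold change, with a median of 0.91. Their sums were 3867, 5147 and 2884 normalized counts in WT iGB6, against 4679, 1858 and 1003 in IgHMOG iGBGFP libraries, so the WT iGB6 library was lower between the females and both were higher between the males. The median log2 difference was −0.30 in females and 1.48 in males, and the part of erythroid cells in the replication counts was not tested. Stem and progenitor genes had 1 of 7 called higher (Kit) and 2 lower (Gata2 and Flt3) by limma. For this list edgeR called 0 higher and 2 lower, and DESeq2 1 higher and 2 lower. The sums were 207 to 258 in WT iGB6 and 182 to 239 in IgHMOG iGBGFP libraries. Gata2, with a log2 fold change of −2.87, is also counted among the basophil and mast cell genes below. T cell genes had 0 of 4 called by the 3 tools (1 at an unadjusted p under 0.05), with sums of 98.7 to 256 in WT iGB6 and 150.1 to 234 in IgHMOG iGBGFP libraries, and Cd3e, Trac and Cd5 were at 0 in some libraries. B cell genes had 0 of 3 called by the 3 tools (2 at an unadjusted p under 0.05), with sums of 56.9 to 101 in WT iGB6 and 96.2 to 159.9 in IgHMOG iGBGFP libraries. Some lists of other myeloid types had members called lower in WT iGB6 by limma, which called 3.37% of all genes lower. Of the basophil and mast cell genes, 5 of 7 were called lower, with sums of 464 to 1691 in WT iGB6 and 1838 to 7470.3 in IgHMOG iGBGFP libraries. Of the dendritic cell genes, 4 of 5 were called lower, with sums of 243 to 395 in WT iGB6 and 645 to 1775 in IgHMOG iGBGFP libraries. Of the classical monocyte genes, 3 of 9 were called lower by limma and 0 higher, while edgeR called 2 lower and 1 higher and DESeq2 3 lower and 2 higher. Their sums were 119173 to 169624 in WT iGB6 and 68623 to 107433 in IgHMOG iGBGFP libraries. Of these counts, the single gene Chil3 held 130711, 93983 and 152107 in WT iGB6, against 88728, 42401 and 36457 in IgHMOG iGBGFP libraries. The higher sums in WT iGB6 thus follow Chil3, and 6 of the 9 monocyte genes had a negative log2 fold change, with a median of −0.72. NK cell genes had 0 of 5 called by the 3 tools (0 at an unadjusted p under 0.05), but WT iGB6 replicate 3, the lowest of its group for most replication genes, had a sum of 1593, against 274 and 157 in WT iGB6 replicates 1 and 2 and 289 to 847 in IgHMOG iGBGFP libraries. Genes that respond to cell isolation had 8 of 11 called lower in WT iGB6 by limma, 5 by edgeR and 6 by DESeq2, with sums of 11133 to 20766, against 20774 to 35589 in IgHMOG iGBGFP libraries, and their part in the replication counts was not tested.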

How the data were processed

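Libraries came from 6 mice, each with its own label, so p-values measure the spread between mice within a group. Per the labels' protocols, 8 to 16 ng of RNA was amplified with a low-input kit that is not described as keeping strand or using molecular identifiers. Counts of overlapping genes (19 members share exon bases with another gene; genes outside the 55 were not screened) therefore cannot be separated, and errors from counting are lower limits. The 19 include the called genes Cdc45, Lig1, Mcm7, Rfc4 and Tk1. The build was GRCm38, per the submitters' processing notes, which list the tools STAR 2.7.10b, cutadapt 4.4, DESeq2 2.11.40.7, featureCounts 2.0.3 and FastQC 0.74. How multimapped reads were treated is not stated there.

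Signal values deposited are the authors' normalized counts. Dividing each column by its smallest step gave whole reads for 100% of values within 0.001. The authors' DESeq2 comparison, in another deposited table, gives log2 fold changes, a score, p-values and adjusted p-values. Symbols and coordinates came from GENCODE M21 (GRCm38), matched for 42548 of 43432 genes.

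Genes were tested with limma 3.58.1 under R 4.3.3 (lmFit, eBayes with trend) on log2(normalized count + 1), for 9923 genes whose mean reached 10, in a model of group plus sex, two-sided and adjusted by Benjamini-Hochberg, threshold 0.05. This scale understates the change of low genes. edgeR 4.0.16 (quasi-likelihood) and DESeq2 1.42.0 were run on the recovered reads as alternatives and called 559 and 878 genes, against 607 for limma. Where a list is given as a number of tested genes, the number is limma's. DESeq2 was run without the filter and took in more genes of some lists, such as 14 erythroid genes against 12. The limma script was tested on simulated counts without a sex or replicate effect, which checks the code and not the error rate in these libraries. The members, gene lists and alternatives were chosen with earlier results of these data known, and total reads scaling was added after seeing the data. Genes with a value in each library were, per step, the 2 with the smallest p, the most abundant per kb and the one with the lowest fold change. For other lists they were up to 3 called genes with the smallest p and the lowest called. Gmnn, Mcm3, Mcm6, Dbf4, Pcna, Pola1, Fen1, Gins3, Rrm1, Tk1 and Rrm2b, and the called genes outside this rule, were named beside them after their values were seen.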

Additional observations from a re-analysis of the deposited data

How the results depend on the processing

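All 55 genes kept a positive log2 fold change under 2 other pseudocounts, TMM, edgeR, DESeq2, no filter, no sex term, the replicate block and in the authors' deposited table. The 23 genes called became 22 with edgeR, 20 with TMM (Mcm7, Rfc4 and Dnmt1 were lost), 26 with DESeq2 and 28 without a filter. They became 0 without the sex term (35 at an unadjusted p under 0.05), 3 in males only and 6 with total reads scaling, and the cause was not tested. Calls over all genes, 607, became 133 in males only, 1079 without a filter, 10 without the sex term and 1001 with the replicate block. Deviations of libraries with the same number correlated at 0.48, 0.35 and 0.04. These were the highest values for WT iGB6 replicates 1 and 2, while WT iGB6 replicate 3 correlated better with IgHMOG iGBGFP replicate 1 (0.085). Mice with the same replicate number also have close mouse numbers in the labels. The numbers were not taken as pairs, and the replicate block called 28 of the 55. Replicate 1 was the only female of each group, so the sex term cannot be told from an effect of replicate 1. Replication genes outside the 55 called higher, 9, became 1 in males only, 1 without the sex term and 3 with total reads scaling, and those called lower, 3, became 0 in males only and 0 without the sex term. Leaving out 1 library at a time gave 0 to 31 of the 55 called, 4 to 1090 calls over all genes, and 0 to 15 higher and 0 to 3 lower among the other genes. Changes near 0 turned. Orc5, Rpa3 and Dctpp1 were at −0.038, −0.13 and −0.15 in males only, and Orc5, Rfc2, Rpa3 and Dctpp1 at −0.18, −0.12, −0.13 and −0.12 with total reads scaling. Over the omissions Orc2 ran from −0.14 to 0.46, Orc5 from −0.12 to 0.21, Rfc2 from −0.020 to 0.22, Rpa3 from −0.13 to 0.27 and Dctpp1 from −0.15 to 0.26. Orc1, Cdt1, Dbf4 and Chaf1a rest on few reads, which limits what could be called.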

Other observations

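Some replication genes outside the 55 that limma did not call or did not test are described here. Samhd1, which breaks down deoxynucleotides in non-dividing myeloid cells, had 5212, 6245 and 5295 normalized counts in WT iGB6, against 7476, 9657 and 9641 in IgHMOG iGBGFP libraries. The groups did not overlap, but the log2 fold change of −0.67 ± 0.18 had an adjusted p of 0.0554, while the authors' deposited table gave Samhd1 an adjusted p of 0.00918. Tonsl, which reads newly made histones at forks, had 1459.6, 1406 and 1314 normalized counts in WT iGB6, against 1560.0, 1813 and 1272 in IgHMOG iGBGFP libraries, with a log2 fold change of −0.14 ± 0.18. Per kb of exon it was at 281 ± 14.9 in WT iGB6 and 312 ± 54.7 in IgHMOG iGBGFP (SD, n = 3 each), which was above all of the 55 genes but Rrm2 in WT iGB6 and above all 55 in IgHMOG iGBGFP. Mcmdc2, an MCM-like gene known for its part in meiosis, was below the filter, at 2.37, 1.58 and 1.12 normalized counts in WT iGB6, against 5.11, 6.90 and 9.00 in IgHMOG iGBGFP libraries, and was not tested. Ccne1, the other E-type cyclin, was also below the filter, at 4.74, 15.8 and 3.37 in WT iGB6, against 11.3, 8.62 and 3.00 in IgHMOG iGBGFP libraries.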
